A study of Bos taurus with 20 samples.

Results

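The 10 genes described here encode transcription factors of mesenchymal identity and of the epithelial to mesenchymal transition: TWIST1, TWIST2, SNAI1, SNAI2, ZEB1, ZEB2, PRRX1, PRRX2, TCF21 and OSR1. They were taken by symbol from the 33063 named genes of the count table, and each symbol had 1 row. Their transcripts were followed in undifferentiated clones of bovine mesenchymal stem cells (MSCs), each clone the progeny of 1 sorted cell. The cells came from visceral fat (inguinal or perirenal, the region of each animal not given) of Holstein Friesian x Aberdeen Angus calves and were grown in serum with bFGF. Adipogenic (A) clones stained strongly for lipid after an adipogenic differentiation of sister cells, and non-adipogenic (N) clones, by the labels, showed none. The RNA was taken from sister cells that had not been differentiated, so no A or N library held an adipogenic treatment. There were 10 A and 10 N clones, with 1 library each. From animals 17 and 20 came 1 clone of each kind apiece, and from animals 22 and 23 came 4 of each kind apiece.

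TWIST1 and TWIST2 are basic helix-loop-helix (bHLH) factors, and SNAI1, SNAI2, ZEB1 and ZEB2 are zinc finger repressors that bind E-box sequences in epithelial genes such as CDH1, which encodes E-cadherin. Fibroblasts and MSCs carry such factors as part of their ordinary state, without a transition under way. PRRX1 and PRRX2 are paired-related homeobox factors of limb and craniofacial mesenchyme, TCF21 is a bHLH factor of visceral mesoderm and of visceral fat precursors, and OSR1 is a zinc finger factor that marks fibro-adipogenic progenitors in muscle connective tissue. bHLH factors such as TWIST1 and TCF21 bind DNA as dimers with the E proteins TCF3, TCF4 and TCF12. The ID proteins lack the basic region that contacts DNA and hold E proteins away from such dimers.

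Total counts per clone lay between 14615493 and 29185355 in A clones and between 14908802 and 43111345 in N clones. CPM below stands for counts relative to the TMM-scaled library size (edgeR), with 3 counts corresponding to between 0.0762 and 0.216 CPM, and levels were not compared between genes. The label of the cells was checked with markers. The summed level of 10 fibroblast and MSC markers lay between 28859.4 and 52286.8 CPM in A clones and between 21620.3 and 40432.5 CPM in N clones, of which COL1A1, COL1A2 and COL3A1 made up 89.5% to 97.4%. The MSC markers THY1, NT5E and ENG were low in N clone 22-5, at 0.394, 0.507 and 19 CPM, against at least 12.2, 32 and 164 CPM in the other clones, so that this clone went against its label in these markers. The leukocyte marker PTPRC had at most 7 counts in a clone. A pair of N clones of animal 22 stood apart in the sum of 13 mesothelial markers. It was 10386.1 CPM in clone 22-5 and 7305.7 CPM in clone 22-9, against 9.74 to 1222 CPM in all other clones. KRT8 and KRT19 gave 4769.3 and 2258.4 CPM of it in clone 22-5, and 2721.9 and 1802.1 CPM in clone 22-9. Not every marker was highest there, since UPK3B peaked in A clone 22-11 and CALB2 had 0 counts in clones 22-5 and 22-9. Results of the members are therefore also given without these 2 clones. In such bulk libraries, fewer cells of a type and less RNA per cell cannot be told apart. Clones of 1 animal share that animal, and the p-values measure the spread between these clones.

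All 10 members were abundant enough to be tested, and 1 of them, TCF21, differed between the 2 kinds of clone past the threshold, which was 0.05 for the p of edgeR's quasi-likelihood F test (animal as a block) after Benjamini-Hochberg adjustment over 12900 genes. Of all genes tested, 20.6% passed this threshold, 10.3% higher and 10.3% lower in A clones. TCF21 was higher in A clones, and the other 9 members did not pass. Fitted log2 fold changes of A against N clones were above 0 for 4 members and below 0 for 6, with a median of -0.19, beside -0.01 over all genes tested. At an unadjusted p under 0.05 there were 3 members, TCF21, ZEB2 and TWIST2, beside 36.1% of all genes tested. None of the members separated the A clones from the N clones completely, beside 0.318% of all genes tested whose CPM ranges in the 2 kinds of clone did not overlap.

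**Figure D1:**
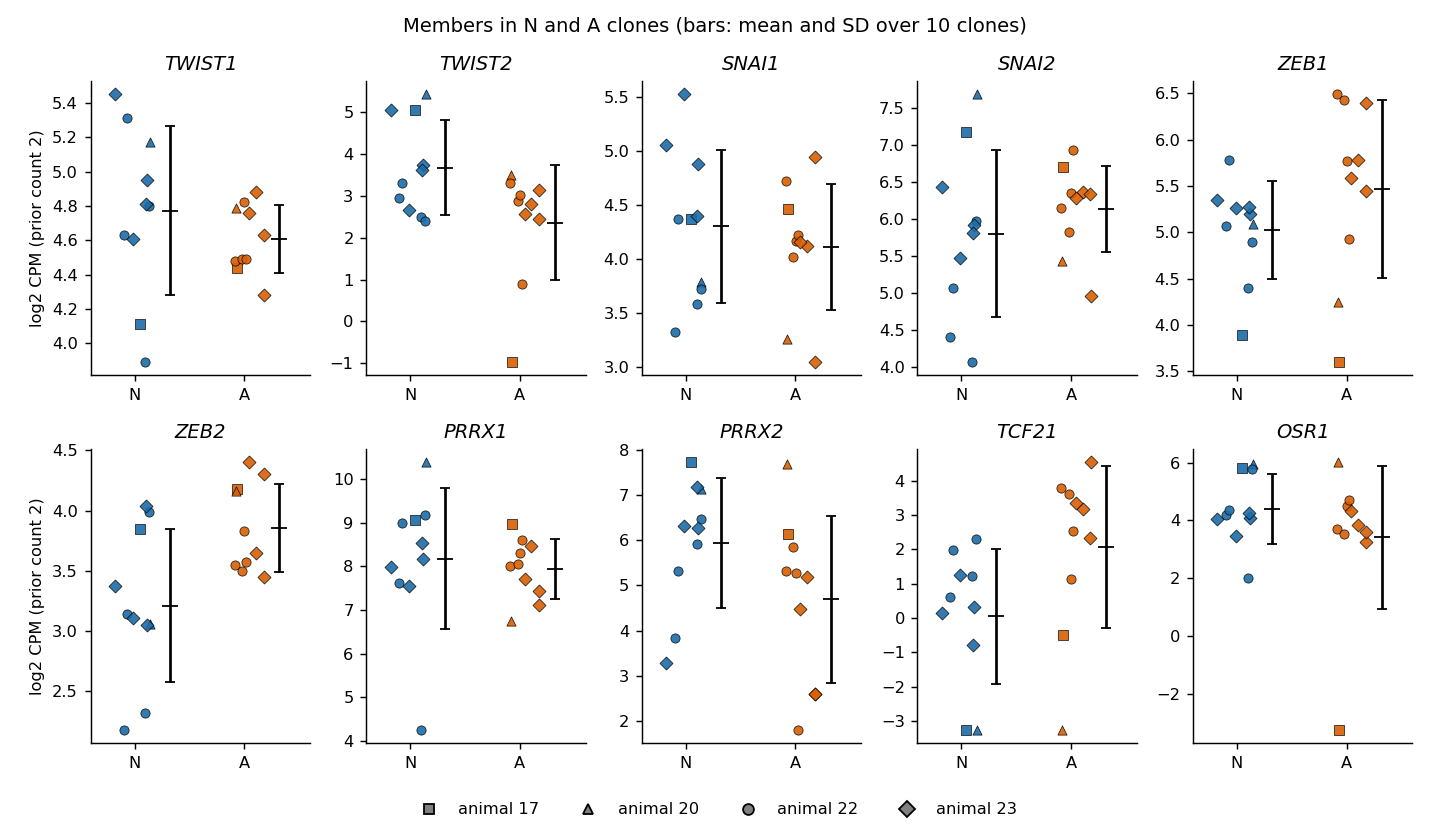
Level of each member as log2 CPM (prior count 2) in the 10 N clones (blue) and the 10 A clones (orange), with 1 point per clone, the point's shape giving the animal and the bars the mean and SD. The A and N points overlap in all 10 panels, and in the TCF21 panel 7 A points lie over the whole N range; points at the bottom of the TCF21 and OSR1 panels are clones with 0 counts, whose place is set by the prior count.

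TCF21 was the member with a difference past the threshold. In A clones it ran from 0 CPM in clone 20-106 to 23.1 CPM in clone 23-14, with a median of 7.32 CPM. Its N clones ran from 0 CPM in clones 17-23 and 20-15 to 4.85 CPM in clone 22-18, with a median of 1.29 CPM. Thus the highest 7 A clones exceeded all N clones, and the groups overlapped because A clones 17-57, 20-106 and 22-27 were as low as N clones. The mean level was 8.15 ± 7.1 CPM in A clones and 1.73 ± 1.61 CPM in N clones (SD, n = 10 each). The fitted difference was 2.43 ± 0.519 on the log2 scale (SE), a 5.4-fold higher level in A clones, with an adjusted p of 0.00563 in edgeR's test.

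Animals differed in how much TCF21 their clones carried. In animal 22 the 4 A clones had 13.8, 12.1, 5.65 and 2.1 CPM of TCF21, and the 4 N clones had 4.85, 3.85, 2.25 and 1.44 CPM. In animal 23 the A clones had 23.1, 10.1, 8.99 and 4.93 CPM, and the N clones had 2.28, 1.13, 1.0 and 0.479 CPM. Every A clone of animal 23 lay above every N clone of that animal, whereas in animal 22 A clone 22-27 lay among the N clones. Animal 20 had 0 TCF21 counts in both of its clones, and animal 17 had 9 counts, 0.612 CPM, in its A clone and 0 in its N clone. A count of 0 allows up to 3 counts, at most 0.216 CPM, and nearly all TCF21 counts came from animals 22 and 23. Without animal 23 the difference was 1.73 with an adjusted p of 0.2 in edgeR's test, a fit in which 32 genes passed in all. Without the animal block the adjusted p of TCF21 was 0.0714.

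The same animals 17 and 20 also had 0 counts of WT1 in all 4 clones, as did N clone 22-18, which had the highest TCF21 level of the N clones. WT1 encodes a zinc finger factor of mesothelium and visceral mesoderm and was on the list of mesothelial markers. In animals 22 and 23, WT1 averaged 34.4 ± 20.3 and 37.8 ± 41.8 CPM in A clones and 126 ± 124 and 125 ± 59.9 CPM in N clones (SD, n = 4 each). The ranges of WT1 overlapped within animals 22 and 23, and its difference of -1.79 on the log2 scale did not pass (adjusted p = 0.16, edgeR). With N clones 22-5 and 22-9 left out, TCF21 still passed, at a difference of 2.35 and an adjusted p of 0.0197 (edgeR).

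**Figure D2:**
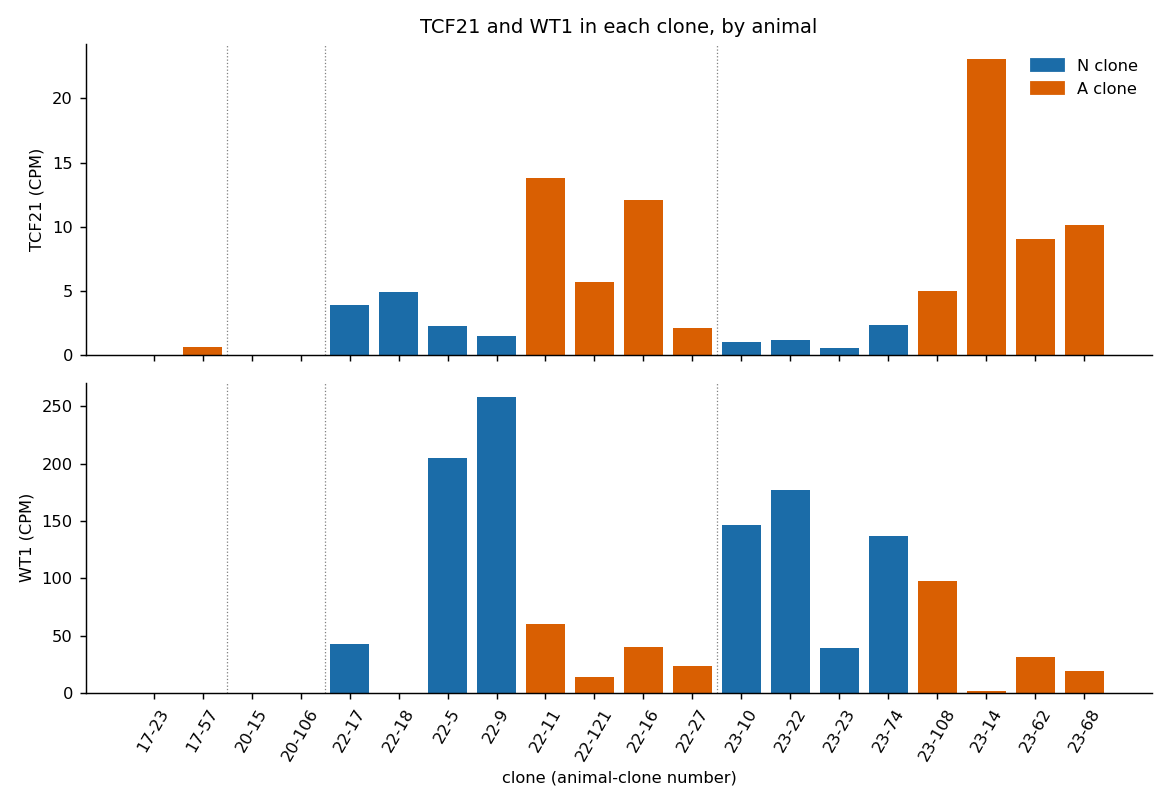
Levels of TCF21 (top) and WT1 (bottom) in CPM in each of the 20 clones, ordered by animal with dotted lines between animals, as bars from 0 (N clones blue, A clones orange). The clones of animals 17 and 20 had at most 0.612 CPM of TCF21 and 0 CPM of WT1, and in animal 23 each A clone was above each N clone for TCF21.

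OSR1 did not share the difference of TCF21. It was 0 CPM in A clone 17-57, had a median of 13.6 CPM in A clones and reached 64.5 CPM in A clone 20-106. In N clones it ran from 3.89 CPM in clone 22-5 over a median of 18.5 CPM to 61.9 CPM in clone 20-15. Clones of both kinds were spread over nearly the same range, and both clones of animal 20 were high. OSR1 averaged 19.3 ± 17.5 CPM in A and 27.8 ± 21.2 CPM in N clones, with a difference of -0.58 ± 0.575 (log2, SE; adjusted p = 0.486, edgeR). The within-animal difference was 0.06, 0.03 and -0.21 in animals 20, 22 and 23. In animal 17 the N clone had 55.6 CPM, 1024 counts, and the A clone had 0 counts. Without clones 22-5 and 22-9 the OSR1 difference was -0.84 (adjusted p = 0.333, edgeR).

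ZEB1 and ZEB2 both had fitted differences above 0. ZEB2 had 10.8 to 21 CPM in A clones, with a median of 13.3 CPM, and 4.43 to 16.3 CPM in N clones, with a median of 8.63 CPM. The lowest 7 N clones were under the whole A range, and the highest 4 A clones were over the whole N range. The difference of ZEB2 was 0.57 ± 0.217 (log2, SE), with an adjusted p of 0.0677 in edgeR's test, and it was above 0 in each of the 4 animals, at 0.34, 1.1, 0.7 and 0.55 in animals 17, 20, 22 and 23. ZEB2 thus missed the threshold in the fit with all clones. It passed when N clone 22-18 was left out, with a difference of 0.76 and an adjusted p of 0.00928, or when N clone 23-23 was left out (both edgeR), and also with DESeq2's Wald test, at an adjusted p of 0.0388. N clones 22-9 and 22-5, which were the clones with the highest mesothelial marker sums, had the lowest ZEB2 levels of all, 4.43 and 4.9 CPM. Without these 2 clones the ZEB2 difference was 0.41 with an adjusted p of 0.16 (edgeR).

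ZEB1, which has been described as a regulator of fat cell formation, spread more widely among A clones. It had 12 CPM in A clone 17-57, a median of 51.3 CPM and 89.5 CPM in A clone 22-11, against 14.7 CPM in N clone 17-23, a median of 35.4 CPM and 54.9 CPM in N clone 22-17. A clones 22-11, 22-16 and 23-14, with 89.5, 85.9 and 84.1 CPM of ZEB1, were above every N clone. The lowest ZEB1 level of each kind was found in animal 17. The difference was 0.49 ± 0.237 (log2, SE; adjusted p = 0.144, edgeR), at 0.87 and 0.53 in animals 22 and 23 and at -0.29 and -0.84 in animals 17 and 20. Without clones 22-5 and 22-9 it was 0.34 (adjusted p = 0.349, edgeR). In the RefSeq annotation of the ARS-UCD2.0 assembly, which is not the build of the counts, 6 entries overlap ZEB1, of which 5 are in the count table at a mean of at most 0.635 CPM, and 1 entry at a mean of 2.08 CPM overlaps ZEB2. The counts of ZEB2 are to that extent uncertain, since the strand setting of the counting is not given.

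TWIST2 was lower on average in the A clones of all 4 animals but did not pass the threshold. A clones had 0.408 CPM in clone 17-57, a median of 7.1 CPM and 11.3 CPM in clone 20-106, and N clones had 5.21 CPM in clone 22-18, a median of 11 CPM and 43.1 CPM in clone 20-15. At the top, 5 N clones were above every A clone, and at the bottom A clones 17-57 and 22-121 were below every N clone. The fitted difference of TWIST2 was -1.12 ± 0.494 (log2, SE), with an unadjusted p of 0.0361 and an adjusted p of 0.112 in edgeR's test and an adjusted p of 0.0457 in DESeq2's Wald test. Within animals 17, 20, 22 and 23 it was -6.03, -1.93, -0.26 and -1.02. In animal 22 the A clones had 9.88, 8, 7.29 and 1.76 CPM, and the N clones had 9.88, 7.61, 5.52 and 5.21 CPM. There, A clone 22-121 alone lay below the N clones. The 2 animals with 1 clone of each kind had the largest of these 4 differences, 33.3 against 0.408 CPM in animal 17 and 43.1 against 11.3 CPM in animal 20. Without clones 22-5 and 22-9 the difference was -1.37 (adjusted p = 0.105, edgeR).

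TWIST1 held to a narrow range in A clones. Its A clones ran from 19.3 to 29.4 CPM with a median of 23.4 CPM, and its N clones from 14.7 CPM in clone 22-5 to 43.6 CPM in clone 23-10 with a median of 27.8 CPM. Of the N clones, 4 were above every A clone and 2 were below every A clone. The TWIST1 difference was -0.21 ± 0.154 (log2, SE; adjusted p = 0.342, edgeR), and -0.32 with an adjusted p of 0.116 without clones 22-5 and 22-9. Its SD of log2 CPM within animal and condition was 0.22 in A clones and 0.49 in N clones, and the N value was 0.36 without clone 22-5.

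SNAI1 and SNAI2, the Snail and Slug repressors, did not pass, and their within-animal differences had both signs. SNAI1 ran from 8.17 CPM in A clone 23-14 over a median of 17.9 CPM to 30.5 CPM in A clone 23-108, and from 9.95 CPM in N clone 22-9 over a median of 20.6 CPM to 45.9 CPM in N clone 23-74. The ranges largely overlapped, with a difference of -0.17 ± 0.252 (log2, SE; adjusted p = 0.663, edgeR). Animal 22 had more SNAI1 in its A clones, 19.7 ± 4.52 against 13.9 ± 4.64 CPM, and animal 23 had less, 18.4 ± 9.18 against 32.3 ± 10.4 CPM (SD, n = 4 each). The test of that difference between animals gave -1.3 ± 0.493 on the log2 scale (animal 23 minus animal 22, SE), with an unadjusted p of 0.019 and an adjusted p of 0.475 in edgeR's interaction test. Without animal 23 the SNAI1 difference was 0.27, and without clones 22-5 and 22-9 it was -0.36 (adjusted p = 0.341, edgeR).

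SNAI2 had 30.9 CPM in A clone 23-14, a median of 79.5 CPM and 122 CPM in A clone 22-121. In N clones it had 16.7 CPM in clone 22-5, a median of 58.7 CPM and 207 CPM in clone 20-15. The N clones were the more spread of the 2 kinds at both ends of the range. The SNAI2 difference was 0.34 ± 0.36 (log2, SE; adjusted p = 0.517, edgeR), composed of -0.48, -2.25, 1.44 and 0.07 in animals 17, 20, 22 and 23. It was -0.33 without animal 22 and 0.01 without N clones 22-5 and 22-9, which had the lowest SNAI2 levels, 16.7 and 21.1 CPM.

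Neither PRRX1 nor PRRX2 passed the threshold. PRRX1 ran from 107 CPM in A clone 20-106 over a median of 261 CPM to 500 CPM in A clone 17-57, and from 18.9 CPM in N clone 22-5 over a median of 332 CPM to 1346.3 CPM in N clone 20-15. N clone 22-5 had the lowest PRRX1 level of all 20 clones, and 4 N clones were above every A clone. The difference of PRRX1 was -0.46 ± 0.453 (log2, SE; adjusted p = 0.489, edgeR), and -0.77 with an adjusted p of 0.114 without clones 22-5 and 22-9. In animal 20 it was -3.65, and in animals 17, 22 and 23 it was -0.09, 0.73 and -0.38.

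PRRX2 had 3.4 CPM in A clone 22-121, a median of 37.4 CPM and 206 CPM in A clone 20-106. In N clones it had 9.59 CPM in clone 23-10, a median of 78.3 CPM and 211 CPM in clone 17-23. A clones 22-121, 23-14 and 23-108 were below every N clone, and the highest clones of each kind reached almost the same level. The PRRX2 difference was -1.19 ± 0.571 (log2, SE), with an unadjusted p of 0.0524 and an adjusted p of 0.142 in edgeR's test. It was below 0 in animals 17, 22 and 23, at -1.59, -0.83 and -2.05, and 0.55 in animal 20. Without clones 22-5 and 22-9 it was -1.41 (adjusted p = 0.125, edgeR).

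**Figure D3:**
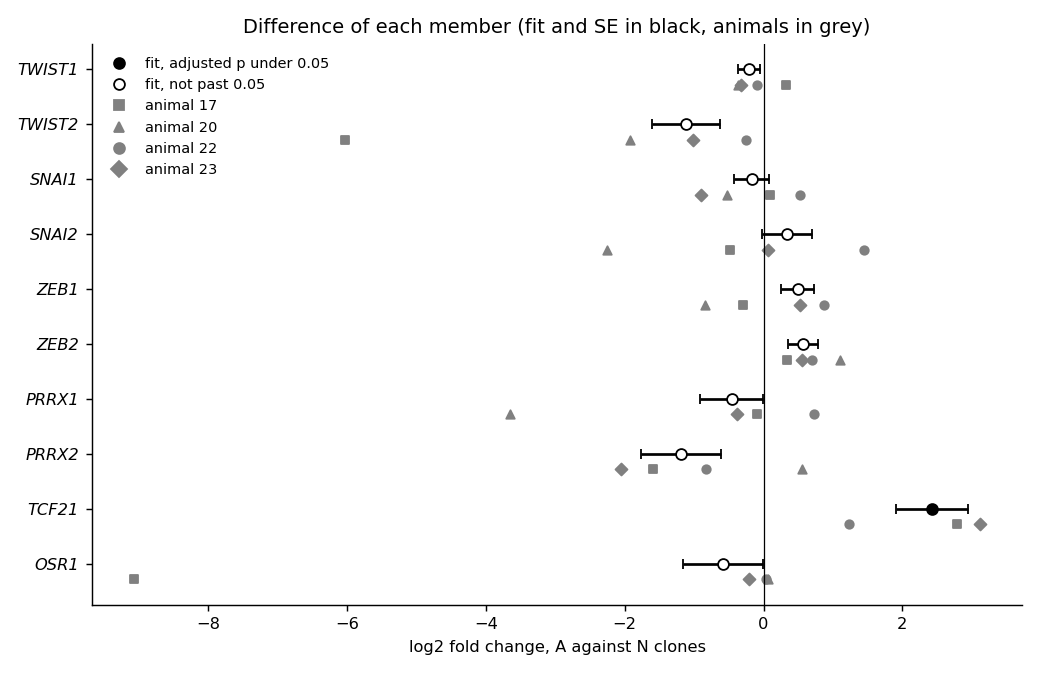
Difference of each member between A and N clones on the log2 scale: black circles with bars are the fitted value and SE over 20 clones (filled where the adjusted p is under 0.05), and grey shapes are the difference within each animal, computed on log2 CPM with a prior count of 2. TCF21 alone is filled, TWIST2 lies below 0 and ZEB2 above 0 in all 4 animals, and the OSR1 point of animal 17 at -9.07 and the TCF21 point of that animal at 2.78 rest on a clone with 0 counts; animal 20, with 0 TCF21 counts in both clones, has no TCF21 point.

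Dependence of these differences on the animal was tested in the 16 clones of animals 22 and 23. None of the 10 members passed at an adjusted p under 0.05 in edgeR's interaction test, beside 0.0288% of the 13880 genes tested, and at an unadjusted p under 0.05 there were 1 member, SNAI1, and 1273 genes. TCF21 had an interaction of 1.83 ± 0.884 (log2, animal 23 minus animal 22, SE; adjusted p = 0.558, edgeR). That is, its larger difference in animal 23 was not past the threshold.

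Pairs of members were compared by the change of their log2 ratio between A and N clones, averaged over animals with equal weight, with a two-sided exact permutation test within animals and adjustment over 5 pairs. The smallest p that the 19600 arrangements allow was 0.000102. The ratio of TCF21 to OSR1 changed by 4.08 on the log2 scale (exact permutation p = 0.00551, adjusted p = 0.0276). Over clones, without equal weight per animal, its mean was -4.34 ± 2.78 in N and -1.35 ± 3.28 in A clones (SD, n = 10 each), a change of 2.99 (adjusted p = 0.0235, exact permutation test). Its change was 11.85, -0.06, 1.2 and 3.33 in animals 17, 20, 22 and 23, of which those of animals 17 and 20 rest on clones with 0 counts and on the prior count. Without animal 17 the change of the TCF21 to OSR1 ratio was 1.49, with an adjusted p of 0.0551 in the exact permutation test. The call was also lost without animal 22 or 23 (adjusted p = 0.0714 and 0.536), and when N clone 22-9 or 22-18 or A clone 22-11 or 22-16 alone was left out (adjusted p = 0.0602, 0.0597, 0.0673 and 0.0673).

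The other 4 pairs did not pass. The log2 ratio of TWIST1 to TWIST2 changed by 2.2, with changes of 6.36, 1.55, 0.17 and 0.7 in animals 17, 20, 22 and 23 (exact permutation p = 0.0581, adjusted p = 0.145). ZEB1 to ZEB2 changed by -0.61 (exact permutation p = 0.313, adjusted p = 0.521). For SNAI1 to SNAI2 the change was 0.1 and for PRRX1 to PRRX2 0.13, with adjusted exact permutation p-values of 0.949 each. The change of the PRRX1 to PRRX2 ratio was 1.5, 1.56 and 1.67 in animals 17, 22 and 23 and -4.21 in animal 20, in which PRRX1 was low and PRRX2 high in the A clone.

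Over the 20 clones, members of a pair did not vary together past the threshold, with values shuffled within animal and condition. TWIST1 and TWIST2 had a Pearson r of 0.37 (permutation p = 0.0269, adjusted over 5 pairs 0.135) and a Spearman rho of 0.43 (permutation p = 0.0866), and r was 0.25 without the 2 clones farthest from the TWIST1 median, 22-5 and 23-10. Within the 8 N clones of animals 22 and 23 the r of this pair was 0.7 (exact permutation p = 0.0226), and within the 8 A clones it was 0.02 (exact permutation p = 0.957). SNAI1 and SNAI2 had r = 0.35 (permutation p = 0.0932, adjusted p = 0.233) and rho = 0.37 (permutation p = 0.0971), with r = 0.41 without the 2 farthest clones, 0.68 within the 8 A clones (exact permutation p = 0.17) and 0.15 within the 8 N clones (exact permutation p = 0.766). Within the 8 A and the 8 N clones, the rho of TWIST1 and TWIST2 was -0.12 and 0.67 (exact permutation p = 0.806 and 0.101). That of SNAI1 and SNAI2 was 0.5 and 0.48 (exact permutation p = 0.212 and 0.285), so the contrast of its r between kinds of clone was not seen in rho. Among the values within 1 kind of clone, only the r of TWIST1 and TWIST2 in N clones had an unadjusted p under 0.05. The r of that pair over all 20 clones also had an unadjusted p under 0.05 (permutation p = 0.0269).

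ZEB1 and ZEB2 had r = 0.02 and rho = 0 (permutation p = 0.876 and 0.98, adjusted p of r 0.876), and PRRX1 and PRRX2 had r = 0.18 and rho = 0.33 (permutation p = 0.359 and 0.196, adjusted p of r 0.46). Without the 2 farthest clones these r were 0.28 and 0.26. Within A clones the ZEB and the PRRX pair each had an r of 0.17, and within N clones 0.24 and 0.04. TCF21 and OSR1 had r = -0.18 and rho = -0.42 (permutation p = 0.368 and 0.107, adjusted p of r 0.46), which became r = 0.05 without the 2 farthest clones, and -0.64 within the 8 A clones and 0.22 within the 8 N clones (exact permutation p = 0.146 and 0.719).

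The members differed in how far clones of 1 animal and condition spread. PRRX2 had an SD of log2 CPM of 1.53 within animal and condition, larger than that of 96.3% of the genes tested, and PRRX1, TCF21, OSR1 and TWIST2 had 1.2, 0.95, 0.88 and 0.78. ZEB2, SNAI1, ZEB1 and TWIST1 had smaller values of 0.54, 0.53, 0.51 and 0.38, with SNAI2 at 0.62. The median over all genes tested was 0.32, below each of the 10 members. PRRX1 spread more among N clones, at 1.64 against 0.45 in A clones, and so did OSR1, at 1.13 against 0.52, but without N clone 22-5 the N values of PRRX1 and OSR1 were 0.63 and 0.62.

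Among the bHLH partners and inhibitors, 4 of 7 genes passed the threshold, beside 20.6% of all genes tested. They were the 4 ID genes, all lower in A clones. The list had a median log2 fold change of -0.63, beside -0.01 over all genes. ID2 ran from 68.9 over a median of 103 to 197 CPM in A clones and from 114 over a median of 186 to 391 CPM in N clones, with 6 A clones under the whole N range. ID2 fell by 0.84 on the log2 scale (SE 0.174, adjusted p = 0.00446, edgeR).

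ID3 ran from 72.7 over a median of 117 to 180 CPM in A clones and from 146 over a median of 173 to 241 CPM in N clones, so that 8 A clones were under the whole N range. ID3 fell by 0.63 (log2, SE 0.158, adjusted p = 0.0118, edgeR). ID4 had 8.95 to 85.7 CPM in A clones, with a median of 31.8 CPM, against 37.5 to 178 CPM in N clones, with a median of 67 CPM, and fell by 1.07 (log2, SE 0.299, adjusted p = 0.0206, edgeR). Each of these ID genes was lower in the A clones of all 4 animals, and their ranges overlapped at the top of the A clones. ID1, at a median of 75.4 CPM in A and 145 CPM in N clones, fell by 0.83 (SE 0.28) with an adjusted p of 0.0449, a call kept in 4 of 20 fits with 1 clone left out (edgeR). ID1, ID2, ID3 and ID4 had differences of -0.61, -0.91, -0.59 and -1.11 without clones 22-5 and 22-9, with adjusted p of 0.196, 0.00701, 0.0353 and 0.0332 (edgeR).

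The E proteins did not pass. TCF3 had 38.3 ± 6.07 CPM in A and 34.4 ± 5.23 CPM in N clones, TCF4 33.7 ± 7.57 and 32 ± 18.3 CPM, and TCF12 81.2 ± 19.1 and 84 ± 16.7 CPM (SD, n = 10 each), with differences of 0.15, 0.2 and -0.04 on the log2 scale (adjusted p = 0.25, 0.707 and 0.856, edgeR). N clone 22-5 had the lowest TCF4 level, 2.82 CPM.

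**Figure D4:**
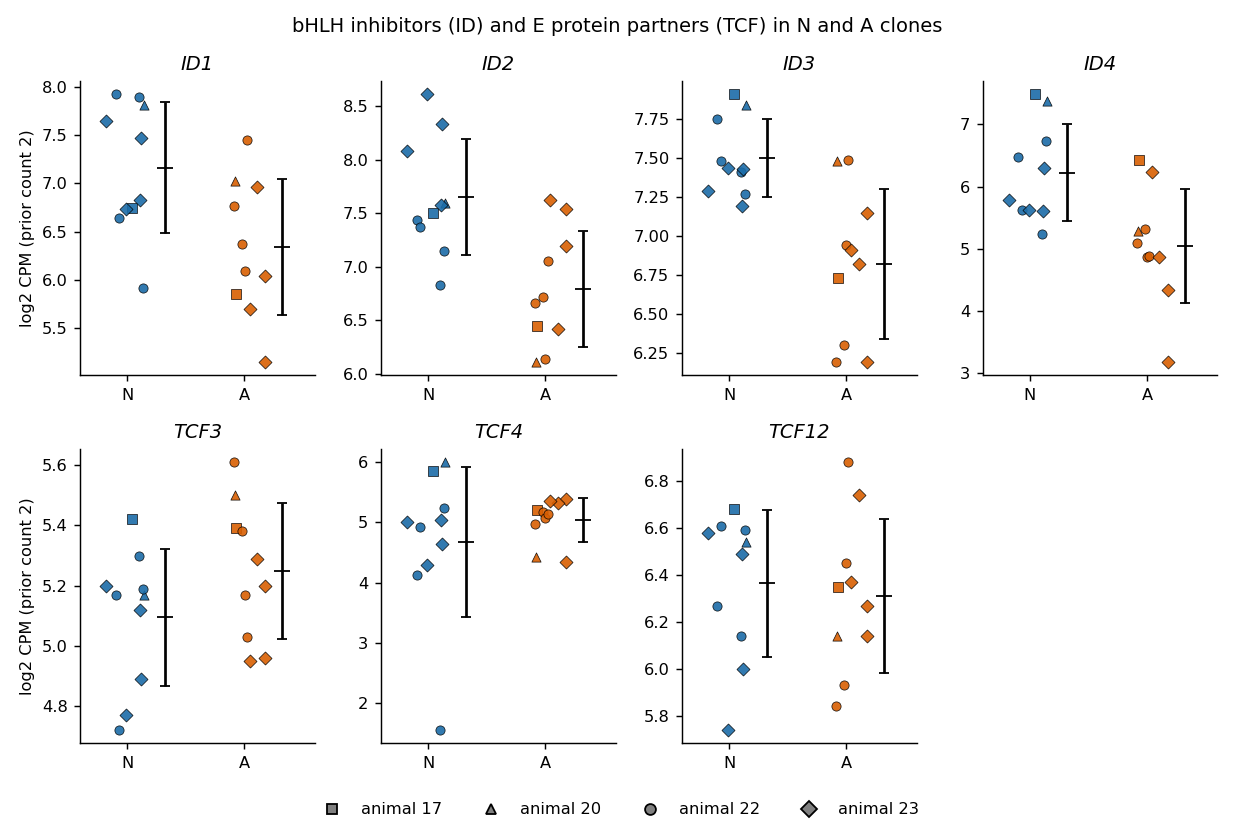
Levels of the 4 ID genes (top) and of the E proteins TCF3, TCF4 and TCF12 (bottom) as log2 CPM with a prior count of 2, with 1 point per clone in N (blue) and A (orange) clones, shapes for animals, and bars for mean and SD over 10 clones. The ID points of A clones sit lower than those of N clones with some overlap (8 A clones of ID3 below every N clone), while the E protein points of both kinds overlap.

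Fitted values of cofactors of the repressors were below 0 for 12 of 14, beside 6610 of all 12900 genes tested. Some of these were near 0, such as HDAC2 (-0.02) and SMARCA4 (-0.04). Their list had a median of -0.21, beside -0.01 over all genes, and 3 of 14 passed the threshold, a share near the 20.6% of all genes. CTBP1, a corepressor recruited by ZEB and Snail factors, had 42.7 to 59.7 CPM in A clones (median 54.2) and 56.9 to 79.1 CPM in N clones (median 67.6), and fell by 0.42 (log2, SE 0.0881, adjusted p = 0.00509, edgeR). EZH2, the methyltransferase of histone H3 lysine 27 in Polycomb repressive complexes, had 15.5 ± 3.92 CPM in A and 29.5 ± 14.2 CPM in N clones (SD, n = 10 each) and fell by 0.95 (SE 0.231, adjusted p = 0.0103, edgeR). SIN3A, a scaffold of histone deacetylase complexes, fell by 0.34 (SE 0.105, adjusted p = 0.033, edgeR), and its call was lost without clones 22-5 and 22-9 (-0.24, adjusted p = 0.121) and kept in 10 of 20 fits with 1 clone left out. CTBP1, EZH2 and SIN3A were lower in the A clones of all 4 animals, but for CTBP1 by little in animals 17 and 20. Its differences were -0.07 and -0.08 in these animals and -0.5 in each of animals 22 and 23.

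Of 10 measured regulators of Snail, Twist and ZEB protein stability, 1 passed, beside 20.6% of all genes tested. PRKD1, protein kinase D1, which phosphorylates SNAI1, had 16.9 to 24.9 CPM in A clones (median 18.5) and 21.7 to 60.8 CPM in N clones (median 32.3). The highest A clones met the lowest N clones, and PRKD1 fell by 0.78 (log2, SE 0.129, adjusted p = 0.00136, edgeR), lower in all 4 animals. The next by p in this list were PSMD14, a deubiquitinase of the proteasome lid, at 0.21 (adjusted p = 0.0613), and the ubiquitin ligase subunit FBXL14 at -0.41 (adjusted p = 0.0926, edgeR). Without clones 22-5 and 22-9, FBXL14 passed at -0.59 (adjusted p = 0.00587, edgeR). The list had a median of -0.01.

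Among 13 related factors, 6 passed the filter and none of these passed the threshold in edgeR's test, with a median of -0.05, while DESeq2's Wald test called 1, FOXC2. The genes closest to the threshold were HMGA2, a chromatin protein, at 0.59 (adjusted p = 0.0886), FOXC2, a forkhead factor, at 2.28 (adjusted p = 0.0898), and OSR2, the paralogue of OSR1, at -0.69 (adjusted p = 0.144, edgeR). SNAI3, HAND1, TCF15, TCF23, TCF24, GSC and SCX were too low to be tested, and SNAI3 had at most 1 count in a clone.

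Of 27 epithelial genes known as targets of Snail and ZEB repression, 12 passed the filter. Of these 1 passed the threshold, ESRP2, beside 20.6% of all genes tested, with a list median of -0.26. ESRP2, an epithelial splicing regulator, had 1.04 ± 0.765 CPM in A and 3.18 ± 2.52 CPM in N clones (SD, n = 10 each) and fell by 1.57 (log2, SE 0.491, adjusted p = 0.0323, edgeR), a call lost without clones 22-5 and 22-9 (-1.07, adjusted p = 0.122) and kept in 11 of 20 fits with 1 clone left out. CDH1 was low throughout, with 0 to 6.24 CPM in A clones and 0 to 7.95 CPM in N clones and a difference of 1.01 (adjusted p = 0.633, edgeR). TJP1, a tight junction scaffold, was at -0.41 (adjusted p = 0.082), and CDS1, a phospholipid enzyme, at 1.53 (adjusted p = 0.136, edgeR). With clones 22-5 and 22-9 left out, 2 genes of this list passed, both higher in A clones, CDS1 among them (2.78, adjusted p = 0.0239, edgeR).

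Mesenchymal effector genes had fitted values above 0 for 20 of 21 measured genes, beside 6290 of all 12900 genes tested. Their median was 0.47, beside -0.01 over all genes. Of the 21, 5 passed, all higher in A clones, beside 20.6% of all genes tested in either direction and 10.3% higher in A clones. ITGA5, the fibronectin receptor subunit alpha 5, had 1916.6 to 6576.4 CPM in A clones (median 3559.5) and 354 to 2831.1 CPM in N clones (median 1031.9). Above the N range lay 7 A clones, and ITGA5 rose by 1.65 (log2, SE 0.295, adjusted p = 0.002, edgeR). COL3A1, COL5A1 and SPARC, genes of collagens and a collagen-binding matrix protein, rose by 0.93, 0.63 and 0.49 (SE 0.236, 0.162 and 0.126; adjusted p = 0.0126, 0.0138 and 0.0128, edgeR). VIM, which encodes vimentin, CDH2 and FN1 were at 0.2, 0.03 and 0.47 and did not pass (adjusted p = 0.477, 0.915 and 0.299, edgeR).

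Markers of other cell types moved beside these results to different extents. For comparison, 20.6% of all genes tested passed the threshold. Of the fibroblast and MSC markers 1 of 10 passed, COL3A1, while COL1A1 (0.37, adjusted p = 0.182) and DCN (0.8, adjusted p = 0.188) did not. Of 9 measured mesothelial markers 1 passed, MSLN, which fell by 1.97 (SE 0.645, adjusted p = 0.0393), while BNC1 (-2.53, adjusted p = 0.162) did not (edgeR). Fitted values of this list were below 0 for 6 genes and above 0 for 3. The latter were KRT8, KRT19 and CDH1, at 0.72, 1.16 and 1.01 (adjusted p = 0.893, 0.806 and 0.633, edgeR). The median of this list was -1.79, and its 13 genes in the table summed to 9.74 to 1222 CPM in A clones (median 69.9) and 11.9 to 10386.1 CPM in N clones (median 189), with CALB2 at or under 3 counts in every clone. MSLN was not called without clones 22-5 and 22-9 (-0.91, adjusted p = 0.393, edgeR), and was called in 8 of 20 fits with 1 clone left out. Of the 10 members, 6 had their lowest N value in clone 22-5 (TWIST1, SNAI2, PRRX1 and OSR1) or 22-9 (SNAI1 and ZEB2). The same count was not made over all genes tested, so it cannot be read as particular to the members.

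Of 10 measured smooth muscle and pericyte markers, 3 passed, all higher in A clones. NOTCH3 rose by 2.99, CSPG4 by 1.76 and MYH11 by 3.04 (SE 0.635, 0.45 and 1.05; adjusted p = 0.00521, 0.0134 and 0.0484, edgeR). Fitted values were above 0 for 9 of the 10, beside 6290 of all 12900 genes tested, with a list median of 1.47. ACTA2, LMOD1, CNN1, TAGLN and MYLK did not pass (adjusted p = 0.334, 0.544, 0.0521, 0.0836 and 0.214, edgeR). ABCC9 was at -0.01 (adjusted p = 0.995, edgeR), and RGS5 and KCNJ8 were too low to be tested, with at most 52 and 5 counts in a clone. Summed levels of the list were 4647.1 to 13892 CPM in A and 1092.2 to 10252.8 CPM in N clones. Of 5 measured endothelial markers 1 passed, ERG, by 2.51 (SE 0.783, adjusted p = 0.0323), while PECAM1 (2.49, adjusted p = 0.0675) and VWF (0.59, adjusted p = 0.44) did not (edgeR). Nor did TEK and EMCN (-0.03 and 0.37, adjusted p = 0.947 and 0.736, edgeR). CDH5, TIE1 and KDR were too low to be tested, with at most 5, 7 and 8 counts in a clone. The endothelial list had a median of 0.59 and summed levels of 9.63 to 106 CPM in A and 1.41 to 54.6 CPM in N clones. The macrophage gene MRC1, the sole marker of its list that was tested, rose by 2 (SE 0.585, adjusted p = 0.0248, edgeR), at 3.64 ± 3.87 CPM in A and 0.903 ± 0.791 CPM in N clones (SD, n = 10 each), with LYZ and TYROBP at or under 3 counts in every clone and a summed level of 1.5 to 16.3 CPM in A and 0.291 to 10.8 CPM in N clones. CSF1R of the same list, the receptor of a macrophage growth factor, was too low to be tested, and is named after its values were seen. It had 0.475 to 2.38 CPM in A clones (median 0.785) and 0 to 0.254 CPM in N clones (median 0.113), so that every A clone was above every N clone. CSF1R had at most 35 counts in a clone, and no other gene of this list separated the kinds of clone. How often untested genes do so was not counted. The muscle gene DES, the sole tested marker of skeletal muscle, was at 2.12 (adjusted p = 0.0677, edgeR) and is also on the smooth muscle and pericyte list. The skeletal muscle list summed to 20 to 668 CPM in A and 0.245 to 128 CPM in N clones. Nearly all of this was DES, at 19.9 to 668 CPM in A and 0.123 to 128 CPM in N clones. MYOD1 and MYOG were at or under 3 counts in every clone. NOTCH3, CSPG4 and MRC1 passed without clones 22-5 and 22-9 (2.57, 1.55 and 2.19; adjusted p = 0.0135, 0.00455 and 0.0458), and MYH11 and ERG did not (2.97 and 2.05; adjusted p = 0.083 and 0.0827, edgeR). With 1 clone left out, MYH11 was called in 5, ERG in 16 and MRC1 in 19 of 20 fits. The part of these cell types in the results of the members was not tested.

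**Figure D5:**
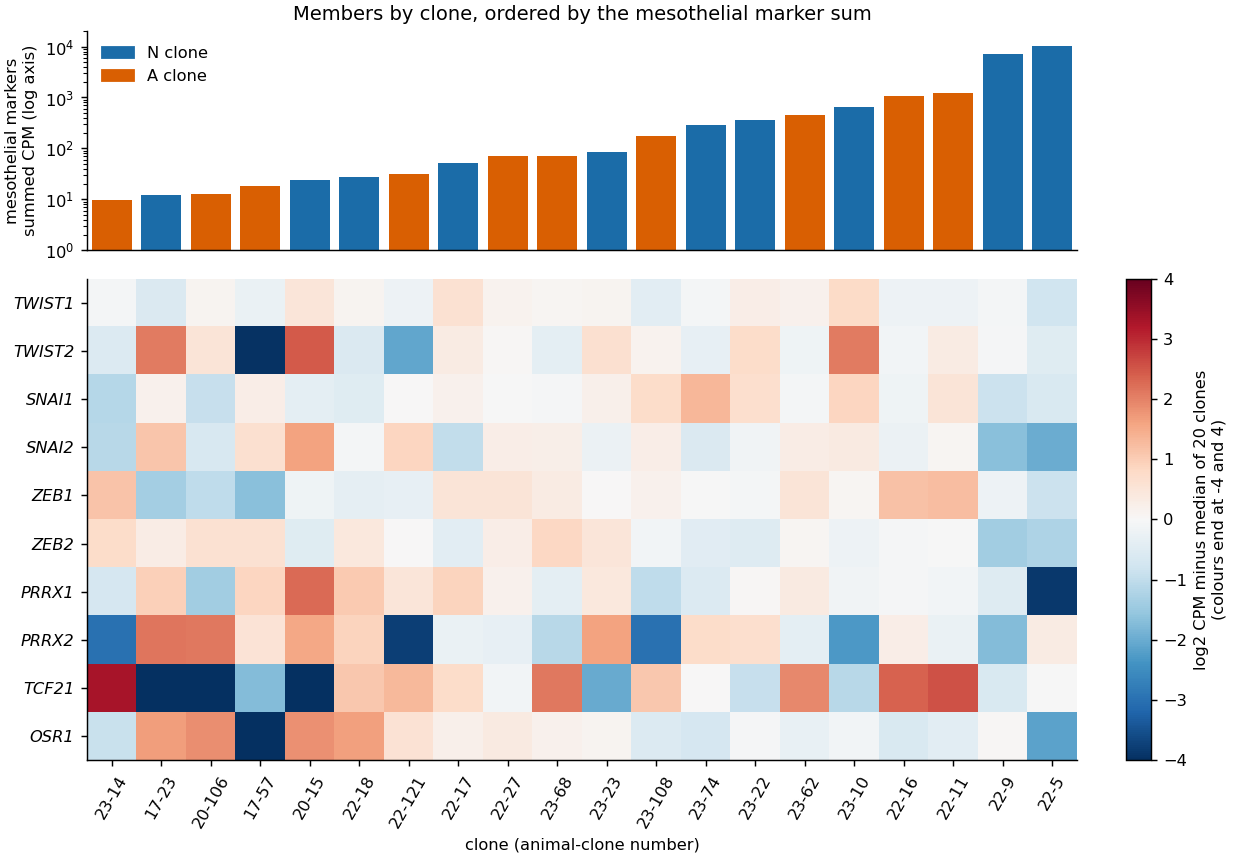
Summed CPM of the mesothelial markers in each clone (top, bars on a log axis, N blue and A orange) and the level of each member in the same clones as log2 CPM minus the member's median over 20 clones (bottom, colours ending at -4 and 4). The 2 clones on the right, 22-9 and 22-5, have the highest marker sums, 7305.7 and 10386.1 CPM, and 22-5 has the lowest PRRX1, while the lowest OSR1 and TWIST2 are in A clone 17-57.

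The genes most like each member were found by Pearson's r of log2 CPM over the 20 clones after the mean of each animal was subtracted, as a description, since these points share animals. TCF21 was most like CHSY1, SLC8B1 and P4HA3, with r of 0.87, 0.86 and 0.85. PRRX1 was most like GORAB, CLHC1 and BGN, each with an r of 0.93, and GORAB is the neighbour of PRRX1 in the RefSeq annotation of ARS-UCD2.0, a fact looked up after the values were seen. OSR1 was most like DCLK1, KCNT2 and ZNF33B (0.9, 0.89 and 0.89). ZEB2 was most like ZNF655, FOXC2 and SUCO (0.91, 0.9 and 0.9), and ZEB1 most like ZNF227, GK5 and GM2A (0.88, 0.87 and 0.86).

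TWIST2 was most like LOC112446042, KCTD18 and TMEM150C, with r of 0.95, 0.91 and 0.9, and TWIST1 most like SPTSSA, RSRC1 and EMILIN2 (0.8, 0.79 and 0.79). SNAI1 was most like MRPL52, RPL18 and RPL28 (0.89, 0.82 and 0.82), genes of mitochondrial and cytosolic ribosomal proteins, and SNAI2 most like RUFY3, LRIG3 and LIMD2 (0.88, 0.87 and 0.85). PRRX2 was most like RCC1L, ANKRD50 and IDH2 (0.83, 0.76 and 0.74). No member was among the 3 genes most like another member.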

How the data were processed

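RNA of 20 undifferentiated clones (10 A, 10 N) from 4 animals was sequenced, and the condition, animal and clone number were taken from the sample labels. Raw counts for each gene in each clone were deposited by the authors, made with Trimmomatic 0.36, STAR 2.5.2b and featureCounts of Subread 1.5.2 on unique reads within exons. The submitters' processing notes name the build ARS-UCD 1.2. Strand setting and handling of overlapping genes are not given in the sources used here. The row without a gene name, 0.113% to 0.333% of the counts, was left out. Columns of samples outside the series numbered 0.

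Counts were fitted in edgeR 4.0.16 (R 4.3.3) with TMM factors, the default expression filter on the condition, which kept 12900 of 23383 genes with at least 1 count, a robust quasi-likelihood fit with animal as a block, and Benjamini-Hochberg adjustment (threshold 0.05). Clones were paired by their animal, and deviations within 1 animal correlated at 0.253, 0.193, 0.241 and 0.44 in animals 17, 20, 22 and 23. Interaction with the animal was fitted on 16 clones. Ratios of pairs of members were tested by permutation within animals. Correlations over 20 clones were tested with values shuffled within animal and condition (100000 resamples), which left the clones of animals 17 and 20 in place. SE is the log2 fold change over the root of F. log2 CPM used a prior count of 2, and limits from 3 counts cover counting error only. Scripts were tested on simulated data.

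The members and lists were chosen with earlier results of these data known, and lists are described by counts and medians. Named genes are all members, the 3 genes of each list with the smallest adjusted p, list genes past the threshold, and the 3 genes most like each member. The result of 1 gene under this rule is left out of the text. CDH1, VIM, CDH2, FN1, the E proteins and SNAI3 are named besides for their known roles, with their values seen. Other cell type markers given by name were also picked with their values seen. Alternatives were no block, other size factors, other filters, DESeq2 1.42.0, limma-voom (limma 3.58.1), no robust dispersion, thinned counts, counts summed per animal and condition, a prior count of 0.5, and animals or clones left out. The fit without clones 22-5 and 22-9, the spread without clone 22-5 and the weighting of animals by clones were chosen after seeing the data.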

Additional observations from a re-analysis of the deposited data

Results flagged for a closer look

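Among 34 groups of 10 clones examined for a clone far from the others on the log2 scale, 3 had one, where chance alone gives about 1.7. PRRX1 in N clones was lowest in clone 22-5, with a gap to the next clone of 0.539 of the group's range, beyond Dixon's 95% critical value, at 18.9 CPM against 189 CPM. TCF4 in N clones was also lowest in clone 22-5, with a gap of 0.579 of the range, at 2.82 CPM against 17.4 CPM. OSR1 in A clones was lowest in clone 17-57, with a gap of 0.701 of the range, at 0 CPM against 9.35 CPM in the next clone; the size of this gap depends on the prior count, since the clone had 0 counts.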

How the results depend on the processing

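TCF21 was the 1 member called with all clones, and it was called in 31 of 34 alternatives, at differences of 1.73 to 3.37 (log2) and adjusted p of 1.08e-05 to 0.3. Without the replicate block that pairs clones by animal, 0 members were called (TCF21 2.22, adjusted p = 0.0714), with 2168 genes called in all. No member was called with 1 summed library per animal and kind of clone (0 genes in all) or without animal 23 (32 genes in all). With at least 10 counts in every clone 0 of the 7 members still tested were called, and TCF21 was not among them. DESeq2's Wald test called 3 members, TWIST2, ZEB2 and TCF21, and 27.4% of 12872 genes. Leaving out 1 clone gave 1 to 2 members, 2 without N clone 22-18 or 23-23. Directions reversed for SNAI1 without animal 23 (0.27), for SNAI2 without animal 22 (-0.33) and with summed counts (-0.33), and for VWF without the block (-0.31) and with summed counts (-0.14). The cause was not tested.

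List counts moved as follows. DESeq2 called 1 related factor, 2 stability regulators, 8 mesenchymal effector genes, 7 smooth muscle and pericyte markers, 2 endothelial markers and 1 skeletal muscle marker. With no filter there were 1 related factor, 0 mesothelial, 0 endothelial, 3 macrophage and 1 skeletal muscle markers. Without clones 22-5 and 22-9 there were 2 stability regulators, 2 epithelial genes and 0 endothelial markers.

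The change of the log2 ratio of SNAI1 to SNAI2 was -0.05 without animal 17, -0.44 without animal 20 and -0.52 with animals weighted by their clones, and that of PRRX1 to PRRX2 was -0.33, -0.35 and -0.38 without animals 17, 22 and 23 and -0.14 without clones 22-5 and 22-9. TCF21 to OSR1 was at 1.49, 5.04 and 4.33 without animals 17, 22 and 23 (adjusted p = 0.0551, 0.0714 and 0.536). Leaving out 1 clone gave -0.44 to 0.19 for SNAI1 to SNAI2, -0.33 to 1.57 for PRRX1 to PRRX2, 1.49 to 5.46 for TCF21 to OSR1, 0.81 to 2.41 for TWIST1 to TWIST2 and -0.71 to -0.16 for ZEB1 to ZEB2. The correlation of ZEB1 and ZEB2 was -0.2 without clones 22-5 and 22-9. Total counts of 14615493 or more per clone limit TCF21, OSR1 and TWIST2 most among the members, with as few as 0, 0 and 6 counts in a clone.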
